A study of Mus musculus with 12 samples.

Results

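Thyroid hormone action in mouse fat was followed through 6 genes. Dio2 and Dio1 encode deiodinases, Thra and Thrb encode the receptors for T3, and Rxra and Rxrg encode retinoid X receptors that pair with them. The genes were taken by name from an expression table of 24344 genes, and each of the 6 has a row. Of these, 5 reached 1 FPKM in at least 3 libraries and were tested among 13215 genes, and Dio1 did not. FPKM relates the sequenced fragments of a gene to the length of its transcript and to the size of the library. Levels of different genes can thus be set beside each other within a library. Between libraries they also depend on the scaling, as the values below show.

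RNA was sequenced from inguinal white adipose tissue, a fat depot under the skin of the groin, in 12 mice aged 10 weeks on the C57BL/6J strain. All mice were kept at room temperature for 4 weeks and at 30 °C, near the thermoneutral point of a mouse, for 6 weeks, and then at 30 °C or 8 °C for 3 days. The genotype was WT or IRE1(alpha)-/-, and the series title names the lines Ern1f/f and Ern1f/f AKO. Genotype and final temperature gave 4 groups with 3 mice in each, called WT_30C, AKO_30C, WT_8C and AKO_8C. The promoter that drives the deletion is not given in the sources used here. The adjusted p-values weigh a difference between groups against the spread between mice within groups, which was pooled over the 4 groups.

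Thyroxine (T4), the main product of the thyroid, has little activity until a deiodinase in the tissue removes an iodine and turns it into T3. DIO2 does this inside the cell, is a selenoprotein of the endoplasmic reticulum with a short life, and in brown and beige fat is induced through beta-adrenergic receptors and cAMP. T3 then binds the receptors TRα and TRβ, which sit on target genes as heterodimers with a retinoid X receptor and exchange corepressors for coactivators when T3 is bound. In brown fat this pathway is known for raising Ucp1 and other genes of heat production together with genes of fatty acid synthesis.

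The Dio2 promoter is shown because cAMP, the signal that is known to induce the gene, acts through a site in it. The 300 bases are those of RefSeq on GRCm38.p6, at chr12:90738989-90739288 on the minus strand, and run from 250 bases before the start site to 50 after it. Capitals mark the only match to TGACGTCA, the full cAMP response element, whose first base lies 95 bases upstream of the start site.
Dio2: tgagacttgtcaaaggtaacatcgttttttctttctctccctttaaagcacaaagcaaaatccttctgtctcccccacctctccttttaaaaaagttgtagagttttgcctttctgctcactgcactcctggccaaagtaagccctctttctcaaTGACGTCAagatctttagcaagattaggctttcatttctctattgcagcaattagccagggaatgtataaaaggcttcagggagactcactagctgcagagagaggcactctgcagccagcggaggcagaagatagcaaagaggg

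The motif TGACGTCA reads the same on both strands and was present in 588 of 32851 RefSeq promoter windows of this length, or 1.79%. Windows were held for 5 of the 6 genes, all but Thra, and of these the Dio2 window alone contained it. The direct repeat of AGGTCA with 4 bases between, a classical arrangement of T3 receptor sites, was searched on both strands. It was found in 0.0152% of all windows and was in none of the windows of the 5 genes. On the minus strand the highest coordinate of a locus is where the gene starts. The RefSeq start site of Dio2 lies 600 bases upstream of that coordinate in the authors' table, outside the locus. These are matches of letters in a window and say nothing of binding.

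Several facts of the whole series touch the values that follow. Ern1, the gene named in the genotype, was not lower in the libraries labelled AKO. It measured 2.53 to 3.32 FPKM in WT_30C and 3.45 to 4.50 in AKO_30C, and 4.53 to 5.2 in WT_8C and 6.83 to 7.37 in AKO_8C (limma adjusted p = 0.193 and 0.0756). A gene-level FPKM does not single out a deleted exon, so it does not check such a deletion, and directions are given for the libraries as labelled. Adipocyte markers were present in every library, with a summed level over 10 genes of 31431 to 40468 FPKM at 30 °C and 51411 to 75457 at 8 °C. Depth in reads is not known from FPKM, but the value of 1 fragment differed by at most 1.39-fold between libraries. Cold changed much of the transcriptome: 49% of the genes tested passed the adjusted p of 0.05 in WT and 49.5% in AKO. Scaling every library to an equal FPKM sum moved the median of all genes by cold to -0.14 in WT and -0.22 in AKO on the log2 scale. Under that scaling the share of calls that were higher went from 49.6% to 35.4% for cold in WT, from 53.4% to 30.1% for cold in AKO and from 72% to 47.5% for AKO over WT at 8 °C. Scaling by upper quartile gave 47.5%, 42.4% and 60.7%.

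Dio2 was close to absent at 30 °C and abundant after 3 days at 8 °C, in both genotypes. In WT_30C its 3 libraries held 0.828, 0.192 and 1.07 FPKM, and in AKO_30C 0.849, 0.599 and 0.274. In WT_8C they held 27.2, 16.8 and 22.04 FPKM, and in AKO_8C 46.0, 47.1 and 45.3. Every 8 °C library lay far above every 30 °C library, and every AKO_8C library lay above every WT_8C library, as in 15.2% of all genes tested. The groups at 30 °C overlapped. Among the 13215 genes the level of Dio2 stood at the 2.52th percentile in WT_30C and the 1.07th in AKO_30C, and at the 70.7th in WT_8C and the 83.9th in AKO_8C.

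**Figure D1:**
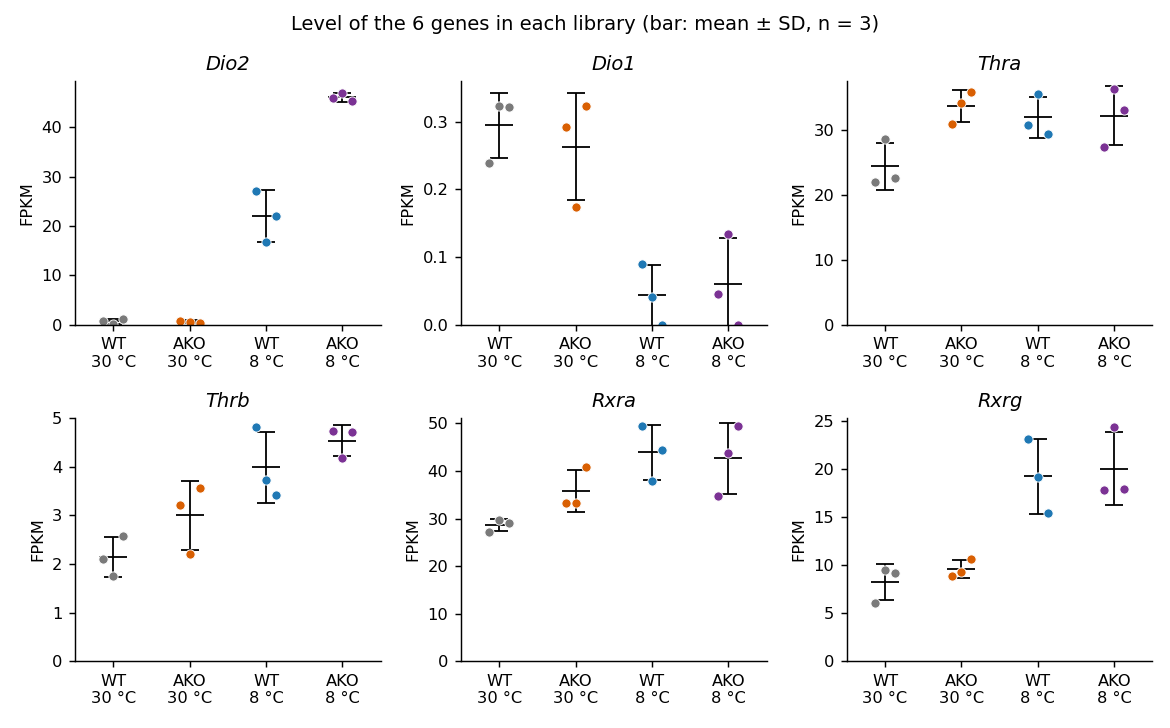
Level of each of the 6 genes in FPKM on the vertical axis, in the 4 groups on the horizontal axis, 1 point per library with a bar for the mean and its SD (n = 3), each panel with its own scale and cut at 0. Dio2 sits below 1.1 FPKM in all 30 °C libraries, between 16.8 and 27.2 in WT_8C and between 45.3 and 47.1 in AKO_8C.

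The mean level of Dio2 rose from 0.697 ± 0.454 to 22.02 ± 5.195 FPKM in WT (SD, n = 3) and from 0.574 ± 0.288 to 46.1 ± 0.893 in AKO (SD, n = 3), which are ratios of mean FPKM of 31.6 and 80.4. On the log2(FPKM + 1) scale, on which all tests were made and which understates the change of a gene this low at 30 °C, the cold difference was 3.77 ± 0.215 (SE; limma adjusted p = 5.57e-07) in WT and 4.92 ± 0.215 (SE; limma adjusted p = 3.06e-08) in AKO. Ranked by log2 difference, Dio2 was the 12th highest of the genes tested in WT and the 7th highest in AKO. Apart from WT_30C replicate 3, Dio2 passed the filter through its 8 °C libraries, so it had to differ with temperature to be tested with a low level at 30 °C. Each alternative way of processing kept both cold calls. In whole tissue, fewer cells of a type and less RNA per cell cannot be told apart. The summed level of 6 brown and beige adipocyte markers went from 679 to 965 FPKM in WT_30C to 7333 to 8955 in WT_8C. Between AKO_30C and AKO_8C it went from 672 to 1491 FPKM to 10190 to 12520. Of the 6, 5 were called higher in each genotype, where 24.3% of all genes tested were in WT and 26.5% in AKO. The summed level of 10 skeletal muscle markers, none at 0 in every library, went the other way, from 2415 to 6158 FPKM in WT_30C to 527 to 1193 in WT_8C and from 2534 to 5017 in AKO_30C to 253 to 749 in AKO_8C. Lymphocyte markers fell as well: 7 of 8 were called lower in WT, where 24.7% of all genes tested were, and 8 of 8 in AKO, where 23.1% were. Their summed level, with none at 0 in every library, went from 730 to 1070 FPKM in WT_30C to 361 to 485 in WT_8C and from 664 to 786 in AKO_30C to 228 to 426 in AKO_8C. Between the temperatures the summed levels of 7 Schwann cell and nerve genes were lower at 8 °C and those of 6 endothelial genes higher in each genotype, without overlap. The part of any of these sets of cells in the cold differences of Dio2 and of the genes below was not tested.

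Between genotypes, Dio2 was higher in the libraries labelled AKO at 8 °C, and the difference at 30 °C did not pass. At 8 °C the ratio of mean FPKM was 2.09, and the log2 difference was 1.06 with a 95% confidence interval of 0.59 to 1.53 (limma adjusted p = 0.0333). That made 1 of the 5 genes tested a call, where 1.46% of all genes tested were called higher at 8 °C and 2.03% in either direction. Dio2 ranked 77th from the highest log2 difference. At 30 °C the log2 difference was -0.09 with an interval of -0.56 to 0.38 (limma adjusted p = 0.886). The difference between these differences, the interaction, was 1.15 with an interval of 0.48 to 1.81, and it did not pass (limma adjusted p = 0.160, unadjusted p = 0.00267), so the genotype difference at 8 °C is not shown to differ from that at 30 °C. In the authors' deposited table for 8 °C, Dio2 is listed with 22.02 FPKM in WT and 46.1 in AKO, a log2 fold change of 1.07 and a q-value of 0.000301. Their table for 30 °C lists none of the 6 genes, and the one for 8 °C lists no other.

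The Dio2 call at 8 °C lay close to the threshold. Leaving out a single mouse ended it for 5 of the 6 libraries. The limma adjusted p was 0.0900 without WT_8C replicate 2, 0.0877 without WT_8C replicate 3, 0.0609 without AKO_8C replicate 1, 0.0687 without AKO_8C replicate 2 and 0.126 without AKO_8C replicate 3. It was 0.0461 without WT_8C replicate 1. No filter on low values (0.0620), a pseudocount of 0.1 (0.212) or 0.5 (0.0747) and a fit to the 6 libraries of the comparison alone (0.0514) ended it too. The log2 difference itself stayed between 0.89 and 1.22 throughout. WT_8C replicate 1, the WT library with the highest Dio2 at 8 °C, also stood apart in its summed level of 8 epithelial markers, at 101 FPKM against 4.61 and 6.71 in the other WT_8C libraries and 3.27 to 4.95 in AKO_8C. Without it the Dio2 difference was 1.22. The 6 brown and beige markers summed to more in every AKO_8C library than in any WT_8C library, as given above. None of the 6 passed limma between genotypes at 8 °C. The unadjusted p was below 0.05 for 2 of them, and for 2560 of the 13215 genes tested. The part of these markers in the Dio2 difference was not tested.

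**Figure D2:**
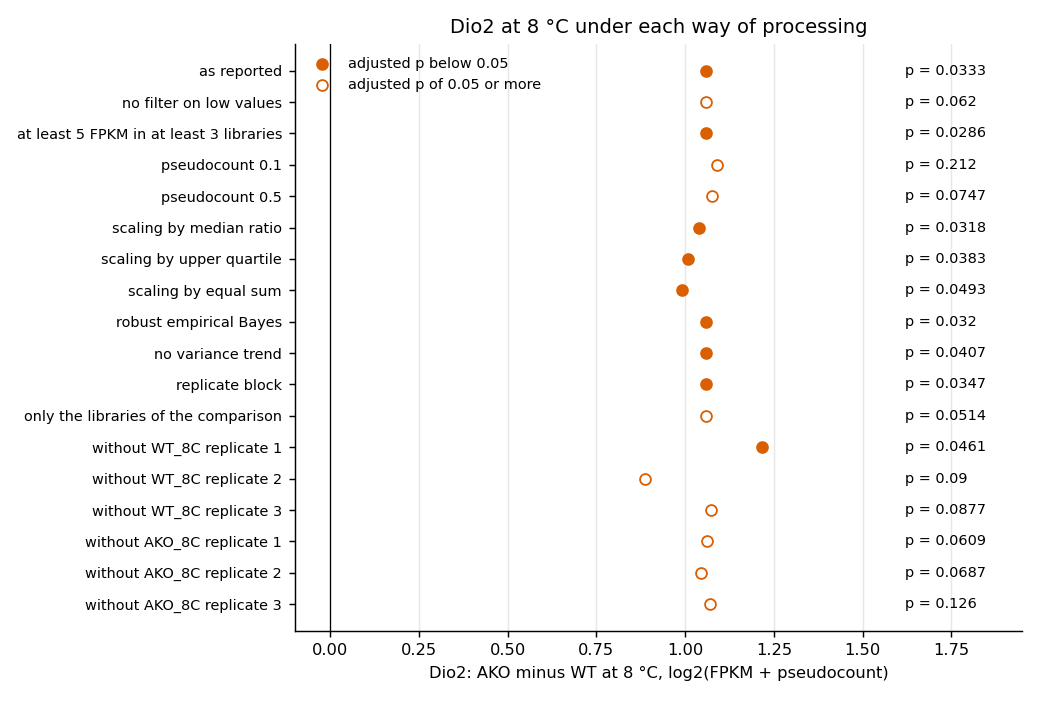
Difference in Dio2 between AKO and WT at 8 °C on the log2(FPKM + pseudocount) scale, 1 row for each way of processing, filled where the limma adjusted p is below 0.05. The points lie between 0.89 and 1.22, and the adjusted p printed at the right runs from 0.0286 to 0.212.

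Dio2 lies on chromosome 12, at 90724552 to 90738438 on the minus strand of GRCm38 in the GENCODE annotation. It shares 238 bases, 100 of them in its 5815 exon bases, with the noncoding gene Gm26512 on the opposite strand. Whether reads were assigned by strand is not given in the sources used here, so fragments from that stretch cannot be told apart. Gm26512 itself was not analysed here.

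Dio1, the deiodinase that is abundant in liver and kidney, was at trace level in all 12 libraries. It measured 0.239, 0.323 and 0.321 FPKM in WT_30C and 0.292, 0.174 and 0.323 in AKO_30C. At 8 °C it was lower, at 0.0892, 0.0405 and 0 FPKM in WT_8C and 0.0450, 0.134 and 0 in AKO_8C, and in neither genotype did the temperatures overlap. Being below the filter, Dio1 was not fitted with the other genes. The exact two-sided permutation test gave p = 0.1 for cold in WT and in AKO, the smallest value that 3 mice against 3 can give, and p = 0.7 for genotype at each temperature. When the filter was dropped, limma called the cold difference of Dio1 in WT (log2 difference -0.31, adjusted p = 0.00271) and in AKO (-0.25, adjusted p = 0.00777). A level listed at 0 or near it rests on few fragments, and no fold is given. In WT_30C and AKO_30C the mean of Dio1 (0.295 ± 0.0478 and 0.263 ± 0.0786 FPKM, SD, n = 3) was below that of Dio2 but of the same order, while at 8 °C Dio2 was the only deiodinase of the pair above 1 FPKM. Dio1 lies on chromosome 4, at 107291465 to 107307169.

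Of the T3 receptor genes, Thra was the more abundant in every library. Thra, which encodes TRα, measured 21.97, 28.5 and 22.6 FPKM in WT_30C and 30.9, 34.1 and 35.8 in AKO_30C. It measured 30.7, 35.5 and 29.4 in WT_8C and 27.3, 36.2 and 33.0 in AKO_8C. WT_30C thus had the lowest mean of the 4 groups, and each of its libraries lay below every AKO_30C and WT_8C library, while AKO_30C, WT_8C and AKO_8C overlapped with one another. In WT, Thra rose by 0.38 ± 0.130 (log2, SE; limma adjusted p = 0.0294) with cold. In AKO the log2 difference was -0.07 with an interval of -0.35 to 0.21 (limma adjusted p = 0.682).

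The Thra call for cold in WT was lost without WT_30C replicate 1 (limma adjusted p = 0.109), WT_30C replicate 3 (0.0935), WT_8C replicate 1 (0.0508) or WT_8C replicate 2 (0.104). Scaling by upper quartile (0.0532) or equal sum (0.182) ended it as well. At 30 °C the libraries labelled AKO were higher in Thra without overlap, as were 8.54% of all genes tested, by a log2 difference of 0.46 with an interval of 0.17 to 0.74, but this missed the threshold (limma adjusted p = 0.135, unadjusted p = 0.00426). At 8 °C the log2 difference between genotypes was 0.01 with an interval of -0.28 to 0.29 (limma adjusted p = 0.984), and the interaction of -0.45 did not pass (limma adjusted p = 0.294). Some summed markers of other cells were higher in AKO_30C than in WT_30C without overlap. The 8 macrophage genes, none at 0 in every library, summed to 207 to 227 FPKM in WT_30C and 417 to 710 in AKO_30C. The 8 fibroblast and progenitor genes summed to 287 to 394 and 731 to 1285. By gene, 2 of the macrophage list and 3 of the fibroblast and progenitor list passed limma, where 0.795% of all genes tested did. With any 1 library of these groups left out, no macrophage gene passed. No fibroblast and progenitor gene did either, unless that library was AKO_30C replicate 2. The part of these cells in the Thra values was not tested.

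Thra lies on chromosome 11, at 98740638 to 98769006 on the plus strand, and shares 263 of its 4614 exon bases with Nr1d1 on the minus strand. Nr1d1, which encodes the clock repressor REV-ERBα, measured 33.1 to 74.2 FPKM over the 12 libraries, so fragments of the shared bases may be counted for either gene. Nr1d1 fell by 0.64 (log2; limma adjusted p = 0.0258) with cold in AKO, where Thra did not pass. That call was lost without AKO_30C replicate 1 (0.0803), AKO_30C replicate 3 (0.0732), AKO_8C replicate 1 (0.107) or AKO_8C replicate 3 (0.0795).

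Thrb, which encodes TRβ, was low and rose with cold in both genotypes. It measured 2.11, 1.76 and 2.57 FPKM in WT_30C and 3.22, 2.21 and 3.56 in AKO_30C. It measured 4.81, 3.73 and 3.41 in WT_8C and 4.73, 4.17 and 4.71 in AKO_8C. In each genotype the 8 °C libraries lay above those at 30 °C, while the genotypes overlapped at each temperature. The rise was 0.66 ± 0.158 on the log2 scale (SE; limma adjusted p = 0.00471) in WT and 0.48 ± 0.158 (SE; limma adjusted p = 0.0236) in AKO. The call in AKO was lost without AKO_30C replicate 2 (limma adjusted p = 0.104), AKO_8C replicate 1 (0.0628) or AKO_8C replicate 3 (0.0654), and under scaling to an equal sum (0.141). Neither genotype difference passed, with log2 differences of 0.34 at 30 °C (limma adjusted p = 0.354) and 0.16 at 8 °C (limma adjusted p = 0.632). Thrb made up 8.26% ± 2.25 of the summed FPKM of Thra and Thrb in WT_30C, 8.19% ± 1.82 in AKO_30C, 11.1% ± 2.12 in WT_8C and 12.5% ± 2.22 in AKO_8C (SD, n = 3). By library these shares overlapped between the temperatures in WT, at 5.81% to 10.2% and 9.51% to 13.6%, and did not in AKO, at 6.09% to 9.42% and 10.3% to 14.8%. Thrb lies on chromosome 14, at 17660261 to 18038090.

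Rxrg rose with cold in both genotypes, and Rxra rose in WT. Rxrg encodes RXRγ, the retinoid X receptor with the narrowest tissue range of the family. It measured 6.09, 9.50 and 9.26 FPKM in WT_30C and 8.85, 9.31 and 10.6 in AKO_30C. It measured 23.2, 19.2 and 15.4 in WT_8C and 17.9, 24.5 and 17.9 in AKO_8C. All 8 °C libraries lay above all 30 °C libraries, and the genotypes overlapped at each temperature. Its mean went from 8.28 ± 1.90 to 19.3 ± 3.87 FPKM in WT (SD, n = 3) and from 9.60 ± 0.926 to 20.1 ± 3.79 in AKO (SD, n = 3). The log2 differences were 1.13 ± 0.183 (SE; limma adjusted p = 0.000401) and 0.98 ± 0.183 (SE; limma adjusted p = 0.000920), and both calls were kept under every other filter, scaling, pseudocount, variance setting and library left out. The difference in AKO lies below the minimum log2 fold change of 1 that was also tried, and that in WT above it. Between genotypes the log2 difference was 0.21 at 30 °C (limma adjusted p = 0.625) and 0.06 at 8 °C with an interval of -0.34 to 0.46 (limma adjusted p = 0.892).

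Rxra encodes RXRα, the common partner of T3, retinoic acid and PPAR receptors. It measured 27.2, 29.7 and 29.2 FPKM in WT_30C and 33.3, 33.3 and 40.9 in AKO_30C. It measured 49.4, 37.8 and 44.5 in WT_8C and 34.8, 43.7 and 49.5 in AKO_8C. WT_30C lay below each of the other groups without overlap, and the other 3 groups overlapped. Of all genes tested, 8.54% were higher without overlap in AKO_30C than in WT_30C, and 28.9% in WT_8C than in WT_30C. With cold Rxra rose by 0.59 ± 0.138 on the log2 scale (SE; limma adjusted p = 0.00422) in WT, and in AKO the difference was 0.24 with an interval of -0.06 to 0.54 (limma adjusted p = 0.171). Without AKO_8C replicate 1 the difference in AKO was 0.37 and passed (limma adjusted p = 0.0396), and under scaling to an equal sum it was -0.02, where the median of all genes moved to -0.22. The interaction of -0.35 did not pass (limma adjusted p = 0.424), so the cold responses of Rxra in the genotypes are not shown to differ. Between genotypes the log2 difference was 0.30 at 30 °C with an interval of 0.0035 to 0.61 (limma adjusted p = 0.341) and -0.05 at 8 °C (limma adjusted p = 0.889). Rxra lies on chromosome 2, at 27676440 to 27762957, and Rxrg on chromosome 1, at 167598384 to 167639623.

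**Figure D3:**
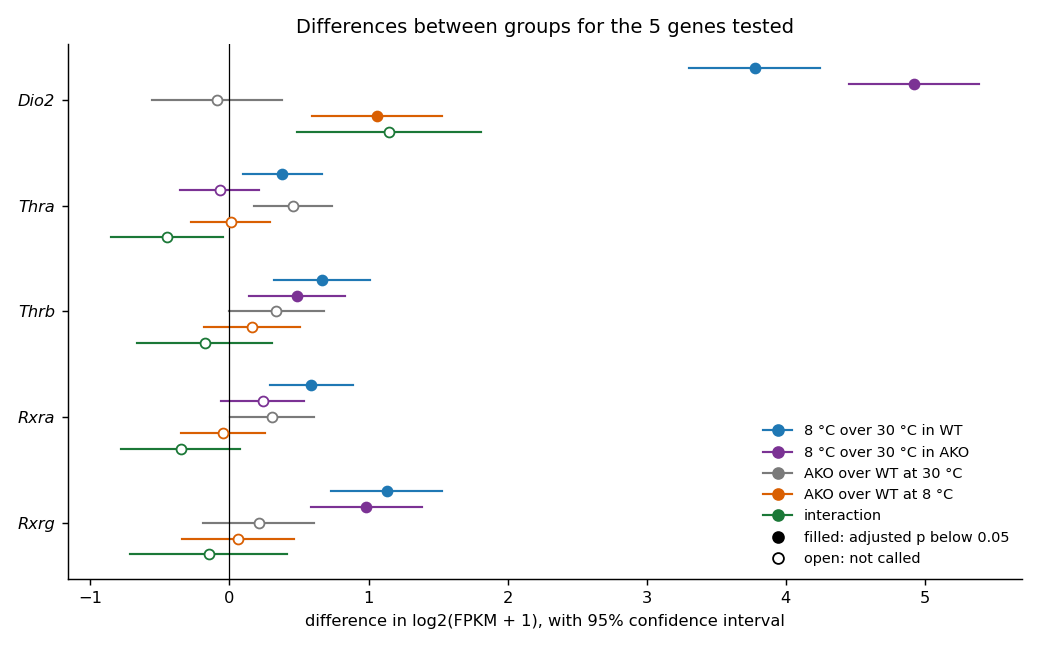
Differences in log2(FPKM + 1) with 95% confidence intervals on the horizontal axis for the 5 genes tested, coloured by comparison and filled where the limma adjusted p is below 0.05. All 5 cold differences in WT are filled, as are those of Dio2, Thrb and Rxrg in AKO and the Dio2 difference of 1.06 between genotypes at 8 °C.

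Counted over the 5 genes tested, all 5 rose with cold in WT, where 24.3% of all genes tested were called higher, and 3 rose in AKO, where 26.5% were. The same 5 and 3 genes were higher at 8 °C without overlap of the groups, as were 28.9% and 30.5% of all genes. Since Dio2 passed the filter through the cold libraries, these counts are a description. At 30 °C none of the 5 passed between genotypes, where 0.795% of all genes did, and the unadjusted p was below 0.05 for Thra (0.00426) and Rxra (0.0478). None of the 5 passed limma in the interaction, where 0.114% of all genes did. There the unadjusted p was below 0.05 for Dio2 (0.00267) and Thra (0.0310). Of the 13215 genes tested, 1909 had an unadjusted p below 0.05 between genotypes at 30 °C and 1965 had one in the interaction. With single libraries left out, 4 or 5 of the genes had a cold call in WT, and 2 or 3 had one in AKO.

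Rxrb, the third retinoid X receptor gene and not among the 6, completes the picture of the receptor pool. It was the most abundant of the family in WT_30C, with 43.9 ± 1.61 FPKM against 28.7 ± 1.30 for Rxra and 8.28 ± 1.90 for Rxrg (SD, n = 3). Rxrg made up 10.2% ± 1.99 of the summed RXR level in WT_30C and 11.1% ± 0.443 in AKO_30C, and 18.0% ± 3.05 in WT_8C and 17.6% ± 2.62 in AKO_8C (SD, n = 3). Its lowest share at 8 °C, 14.6%, was above its highest at 30 °C, 11.6%. Rxra made up 35.5% ± 0.845 in WT_30C, 41.5% ± 3.19 in AKO_30C, 41.1% ± 3.25 in WT_8C and 37.2% ± 3.33 in AKO_8C (SD, n = 3). Rxrb gave the remaining 54.3%, 47.4%, 40.9% and 45.1%. Rxrb itself rose with cold in AKO by 0.32 (log2; limma adjusted p = 0.0114), a call that was lost under scaling by upper quartile (0.0964) or equal sum (0.590).

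**Figure D4:**
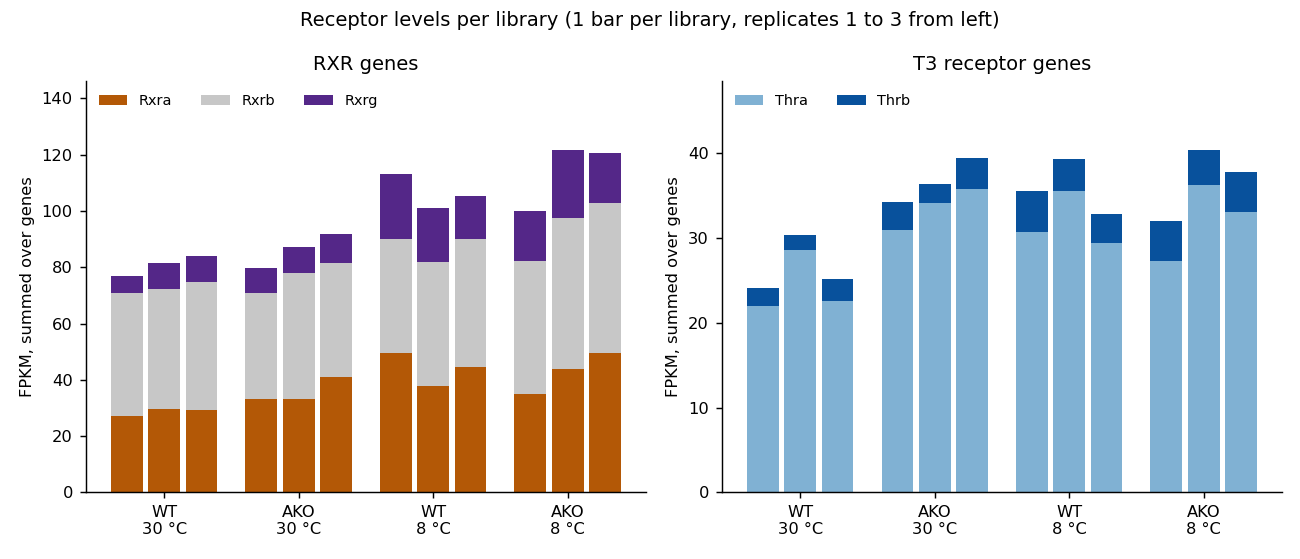
Summed FPKM of the 3 retinoid X receptor genes (left) and of the T3 receptor genes Thra and Thrb (right) on the vertical axes, 1 stacked bar per library in the 4 groups. The Rxrg segment is a larger part of each 8 °C bar, at 14.6% or more, than of any 30 °C bar, at 11.6% or less.

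Genes that lead from the adrenergic signal to Dio2 mostly rose with cold. Of the 9 of 10 genes tested in this list, 5 rose and 2 fell in WT, and 6 rose and 1 fell in AKO. Over all genes tested, 49% were called with cold in WT, 24.3% being called higher, and 49.5% in AKO, 26.5% being called higher. The median log2 difference of the list was 1.08 in WT and 1.03 in AKO, against -0.01 and 1.14e-05 over all genes tested. Adcy3, an adenylyl cyclase that makes cAMP, rose by 1.84 in WT (limma adjusted p = 3.76e-06) and by 2.54 in AKO (1.37e-07). Gnas, the stimulatory G protein, rose by 1.08 and 1.49, and the protein kinase A subunits Prkaca and Prkar2b by 1.16 and 1.18 in WT and by 1.11 and 1.63 in AKO. Adrb1 rose by 1.28 in WT and 0.70 in AKO, and Crem by 1.03 in AKO. Adrb3, the main beta-adrenergic receptor gene of mouse fat cells, fell by 0.82 in AKO (limma adjusted p = 0.00460). Creb1 fell in WT by 0.53, a call lost without WT_30C replicate 1 (adjusted p = 0.0951), WT_30C replicate 3 (0.122), WT_8C replicate 1 (0.0629) or WT_8C replicate 2 (0.1003), or with no filter on low values (0.0552). The Adrb1 call in AKO was lost without AKO_8C replicate 2 (adjusted p = 0.0550) or under scaling to an equal sum (0.0707).

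Adcy3 was also the only gene of that list called between genotypes at 8 °C, like Dio2 higher in the libraries labelled AKO. It measured 41.8, 35.5 and 40.1 FPKM in WT_8C and 53.6, 78.4 and 68.3 in AKO_8C, a log2 difference of 0.74 (limma adjusted p = 0.0306). The call was lost without AKO_8C replicate 2 (0.0627) or replicate 3 (0.121) and without any WT_8C library (0.0576, 0.0778 and 0.0748 for replicates 1, 2 and 3), and in a fit to the 6 libraries alone (0.0743). Crem passed at 8 °C without AKO_8C replicate 2 (0.0429).

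Genes that make a selenoprotein such as DIO2, or remove it, were tested next. Of 7 genes of selenoprotein synthesis, 3 rose in WT, where 24.3% of all genes tested did, and 3 in AKO, where 26.5% did. The median log2 differences of the list were 0.02 in WT and 0.22 in AKO. Sephs2, which makes the selenium donor, rose by 0.93 in WT (limma adjusted p = 3.09e-05) and 0.96 in AKO (1.44e-05), Sepsecs by 0.59 and 0.82, and Pstk by 0.50 and 0.76. Secisbp2, whose protein binds the selenocysteine insertion element of such messages, fell by 0.47 in WT. Of 6 genes of DIO2 protein turnover tested, 2 were called in each genotype, below the shares over all genes of 49% and 49.5%. Usp33, a deubiquitinase that spares DIO2, rose by 0.54 in WT (limma adjusted p = 0.00556) and 1.09 in AKO (4.05e-05). Ube2j1 rose by 0.43 in AKO, a call lost without AKO_30C replicate 2 (0.0663) or AKO_8C replicate 3 (0.0668), or under scaling to an equal sum (0.223). Wsb1, the adaptor of a ubiquitin ligase for DIO2, fell by 0.44 in WT, a call lost without WT_30C replicate 1 (0.0840), WT_30C replicate 3 (0.145), WT_8C replicate 1 (0.124) or WT_8C replicate 3 (0.103). It was also lost with no filter on low values (0.0528), in the libraries of the comparison alone (0.0758) and with the replicate block (0.0507). None of either list passed limma between genotypes, except that Usp33 passed at 8 °C with the replicate block (0.0371). The unadjusted p was below 0.05 for 0 of these genes at 30 °C and 3 at 8 °C. Over the 13215 genes tested it was so for 1909 and 2560.

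Messages of genes that carry T4 and T3 across the cell membrane differed in direction. Of 8 of 11 transporter genes tested, 4 rose and 2 fell with cold in WT, and 3 rose and 1 fell in AKO. The 4 of 8 called in AKO are close to the 49.5% called over all genes, and 49% were called in WT. Slco4a1 rose by 1.08 (limma adjusted p = 0.000550) and 1.69 (1.58e-05), and Slc16a10, which encodes the T3 exporter and importer MCT10, by 0.77 and 0.84. Slc3a2 rose by 0.53 in WT and 1.04 in AKO. Slco2b1 fell by 0.59 and 0.91, and Slc7a5 by 0.40 in WT. The Slc3a2 call in WT was lost without WT_8C replicate 1 (0.0528), and that of Slc7a5 without WT_30C replicate 1 (0.0909), WT_30C replicate 3 (0.0943), WT_8C replicate 1 (0.105) or WT_8C replicate 3 (0.0550). Of the carriers, Alb rose by 1.82 in WT and 1.61 in AKO, the latter lost without AKO_30C replicate 2 (0.0539). Crym, a T3-binding protein of the cytosol, fell by 0.60 in WT, which was lost without WT_30C replicate 1 (0.0733), WT_30C replicate 3 (0.0613) or WT_8C replicate 1 (0.0773). No transporter or carrier passed limma between genotypes, except that Slc3a2 did at 8 °C without AKO_8C replicate 1 (0.0360). The unadjusted p was below 0.05 for 3 of these genes at 30 °C and 1 at 8 °C. Over the 13215 genes tested it was so for 1909 and 2560.

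Cofactors and partners of the receptors followed. Of 11 coactivator genes, 3 were called with cold in WT and 4 in AKO, and of 6 genes of the corepressor complex 2 in each, all below the shares over all genes of 49% and 49.5%. Ppargc1a, which encodes PGC-1α, rose by 1.39 in WT (limma adjusted p = 0.000199) and 2.29 in AKO (3.19e-06), and Ppargc1b by 1.98 in AKO. Ncoa1 rose by 0.42 and 0.59 while Ncoa3 fell by 0.63 and 0.48. The count of coactivators lower in WT was 1, but 4 without WT_30C replicate 2 and 5 under scaling to an equal sum. In the corepressor complex Tbl1x rose by 0.47 and 0.50, the latter lost under scaling to an equal sum (0.0604), and Gps2 fell by 0.66 and 0.39, the latter lost without AKO_30C replicate 2 (0.0915), AKO_8C replicate 1 (0.0570) or AKO_8C replicate 2 (0.0871). Of the 10 of 12 tested among other receptors that pair with RXR, 6 rose in each genotype, 1 fell in WT and 2 fell in AKO. Over all genes 24.3% rose in WT and 26.5% in AKO. Nr1h3, which encodes LXRα, rose by 1.04 and 0.84, Rarb by 0.64 and 1.004, Nr4a2 by 0.92 and 0.98, and Pparg by 0.80 in each. Rara fell by 0.47 in WT, a call lost without WT_8C replicate 1 (0.0507), and by 0.53 in AKO. Rarg fell by 0.52 in AKO, a call lost without AKO_30C replicate 3 (0.0782), AKO_8C replicate 1 (0.0560) or AKO_8C replicate 3 (0.0783), or in the libraries of the comparison alone (0.0509).

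Most genes known to respond to T3 rose with cold. Of the 17 of 18 tested, Thrb among them, 15 rose and none fell in WT, and 15 rose and none fell in AKO, with median log2 differences of 1.39 and 1.29. Over all genes tested 24.3% rose in WT and 26.5% in AKO, with medians of -0.01 and 1.14e-05. Ucp1, the uncoupling protein of brown and beige fat, rose by 7.69 (limma adjusted p = 3.11e-06) and 8.08 (6.03e-07), and Cpt1b, which admits fatty acids to mitochondria, by 2.84 and 3.56. Atp2a2, the SERCA2 calcium pump, rose by 1.17 and 1.53, and Gpd2, the mitochondrial glycerol phosphate dehydrogenase, by 2.06 and 2.87. The 2 without a call were Acaca and Cpt1a in WT and Mid1ip1 and Hr in AKO. Cold also acts on many of these genes by other routes, and the level of T3 was not analysed here.

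Between genotypes 4 of the 17 passed limma at 8 °C and none at 30 °C. At 30 °C none of the 17 passed limma, with a median log2 difference of 0.12 against -0.04 over all genes, of which 0.795% passed. The unadjusted p at 30 °C was below 0.05 for 2 of the 17, and for 1909 of the 13215 genes tested. At 8 °C the median was 0.22 against 0.03 over all genes. There 3 were higher in the libraries labelled AKO and 1 was lower, where 2.03% of all genes were called in either direction and 1.46% as higher. In the interaction none passed limma. The unadjusted p of the interaction was below 0.05 for 5 of the 17, and for 1965 of the 13215 genes tested. Of the calls at 8 °C, Ppargc1a was higher by 0.94 (limma adjusted p = 0.0380), Atp2a2 by 0.49 (0.0376) and Cpt1a by 0.48 (0.0354). Mid1ip1, a regulator of acetyl-CoA carboxylase, was lower by a log2 difference of -1.10 (0.0306). Leaving out any 1 of the 6 libraries ended the calls of Ppargc1a (0.0754 to 0.120) and Cpt1a (0.0551 to 0.149). Leaving out any but AKO_8C replicate 1 ended that of Atp2a2 (0.0769 to 0.167). The call of Mid1ip1 was lost without AKO_8C replicate 3 (0.121), WT_8C replicate 2 (0.0631) or WT_8C replicate 3 (0.0778), and in the 6 libraries alone (0.0841). Under scaling to an equal sum none of the 3 higher calls was left. The authors' deposited table for 30 °C does mark genes of this list as significant. Klf9 and Ucp1 are higher there in AKO and Me1 is lower (q-value of 0.000301 each). For 8 °C their table marks Cpt1b, Gpd2, Klf9, Pdk4 and Ppargc1a as higher and Mid1ip1 as lower. Ucp1 is listed there without being significant (q-value of 0.0886).

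**Figure D5:**
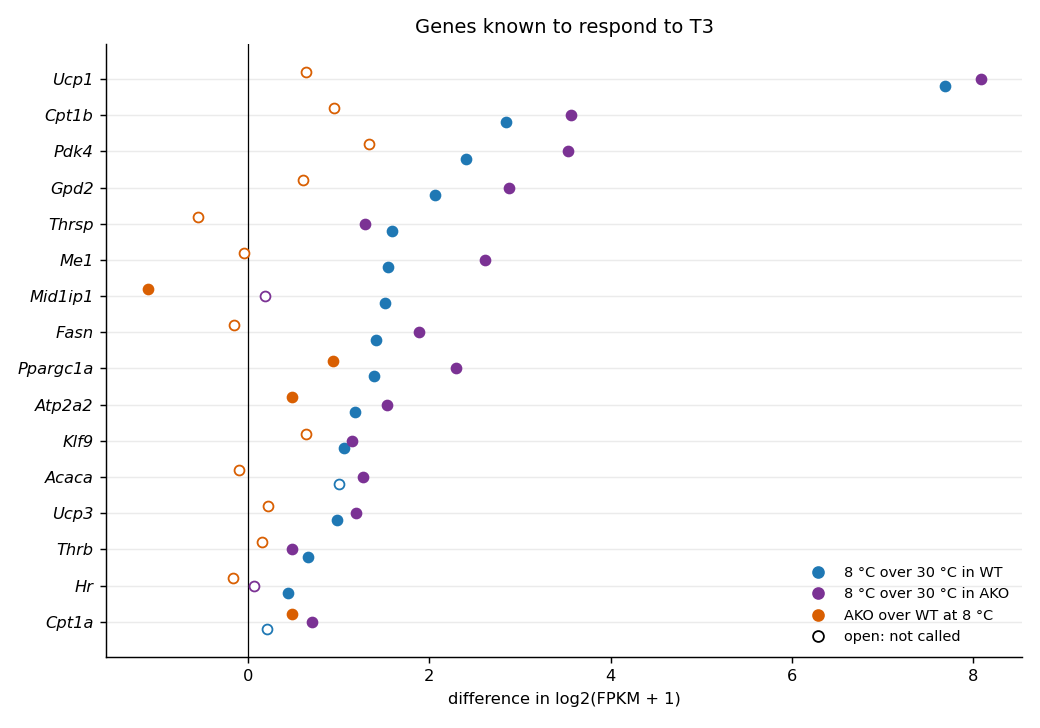
Differences in log2(FPKM + 1) on the horizontal axis for 16 of the 17 tested genes known to respond to T3, coloured by comparison and filled where the limma adjusted p is below 0.05; the comparison between genotypes shares its 8 °C libraries with the cold comparisons. The cold differences lie to the right of 0, from 0.08 to 8.08, and those between genotypes at 8 °C lie on both sides of it.

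The genes whose pattern over the 12 libraries was most like that of each of the 5 tested genes were found by Pearson correlation of log2(FPKM + 1) among 12419 candidates. All 12 points share the split into temperatures, so a high value describes that split as much as anything else, and no p is given. For Dio2 the highest were Gyk (r = 0.995), Adtrp (0.994), Timm10 (0.994), Tmem147 (0.994) and Slc25a17 (0.994). Gyk, glycerol kinase, had group means of 2.33 FPKM in WT_30C, 2.39 in AKO_30C, 58.8 in WT_8C and 117.5 in AKO_8C, the same order of 8 °C groups as Dio2. For Thra they were Loxl2 (0.934), Nenf (0.921) and Slc11a1 (0.913), each with its lowest mean in WT_30C. For Thrb they were Zak (0.954), Nfib (0.953) and Cyyr1 (0.952), and for Rxra Agt (0.955), Klhl22 (0.954) and Serpina3m (0.953). For Rxrg they were Arhgap35 (0.965), Irgq (0.959) and Nr1h3 (0.959), the last of them also in the list of RXR partners.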

How the data were processed

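RNA was extracted with TRIzol and sequenced, per the labels' protocols. Per the submitters' processing notes, the tools were bcl2fastq, FastQC 0.11.3, TopHat2 2.0.14 and Cufflinks 2.2.1 with build mm10; options and strand use are not given in the sources used here. The gene table deposited by the authors holds FPKM, and no read counts: 99.986% of the nonzero values are fractional. The comparison tables that the authors deposited hold FPKM per group, with a log2 fold change, a statistic that is a score, and each gene's p-value and q-value.

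Genes with at least 1 FPKM in at least 3 libraries were tested, leaving out 2 genes listed at 0 in at least 1 library but reaching 1000 FPKM elsewhere. Values were log2(FPKM + 1) with the authors' scaling. limma 3.58.1 in R 4.3.3 fitted 1 mean per group over the 12 libraries with a variance trend. Tests were two-sided, with Benjamini-Hochberg adjustment over the 13215 genes and a threshold of 0.05. The procedure was tested on simulated data. Figures used Python 3.11.15 and matplotlib 3.10.9.

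The 6 genes, the pathway and marker lists and the tests were chosen with earlier results of these data known. Called genes of a list were named by smallest adjusted p, up to 4 in a comparison, and those beyond 4 (Adrb1, Crem, Creb1 and Slc7a5 among them) after their values were seen. Some genes of the lists are counted but not reported by name here. Alternatives were other filters, pseudocounts and scalings, other variance settings, a replicate block, the libraries of a comparison alone, each library left out, and a minimum log2 fold change of 1.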

Additional observations from a re-analysis of the deposited data

How the results depend on the processing

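Apart from the minimum log2 fold change of 1, both cold differences of Dio2 and of Rxrg, and the cold differences of Thrb and Rxra in WT, kept their call under each alternative in which the gene was tested (Thrb was below the filter of 5 FPKM), those of Dio2 between 3.54 and 4.99 in WT and between 4.74 and 6.20 in AKO. Dio2 for AKO over WT at 8 °C kept its direction and lost its call with no filter on low values (1.06), a pseudocount of 0.1 (1.09) or 0.5 (1.08) and the 6 libraries alone (1.06), and with libraries left out it ran from 0.89 to 1.22. The count of the 5 genes called at 8 °C then went from 1 to 0, and with libraries left out it was 0 or 1. The cause was not tested. Requiring a log2 fold change of 1 left 2 of 5 cold calls in WT, Dio2 and Rxrg, and 1 of 3 in AKO, Dio2, and it ends by construction every call of a named gene that differs by less. Other genotype differences near 0 changed sign without a call. Dio2 at 30 °C ran from -0.32 to 0.0756 with libraries left out. At 8 °C Rxra ran from -0.16 to 0.0892, Rxrg from -0.0822 to 0.20 and Thra from -0.0800 to 0.12, Rxrg was -0.00199 under scaling to an equal sum, and Thra was -0.0119 under median ratio, -0.0435 under upper quartile and -0.0568 under equal sum. With cold in AKO, Rxra was -0.0235 under equal sum and Thra ran from -0.16 to 0.0416 with libraries left out, and the Rxrg interaction ran from -0.29 to 0.0341. Over all genes, the count called for AKO over WT at 30 °C went from 105 to 56 under median ratio, 49 with a robust variance, 69 with no trend, 1 with no filter or with the block, and 0 to 29 with libraries left out. At 8 °C it went from 268 to 172 with no filter, 419 with the block, 6 in the 6 libraries alone, 44 with a log2 fold change of 1, and 23 to 196 with libraries left out. The interaction went from 15 to 1, 4, 8 and 23 with no filter, a pseudocount of 0.1, equal sum and the block, and 0 to 17 with libraries left out. Requiring a log2 fold change of 1 left 1253 of 6479 cold calls in WT and 1596 of 6548 in AKO. Deviations from the group mean in libraries with the same replicate number had correlations of -0.11 to 0.16. Whether these libraries share more than a number, such as a batch, was not tested. With the replicate block Dio2 at 8 °C had a limma adjusted p of 0.0347, Thra at 30 °C had 0.0721, and no call of the 5 genes changed. Precision is limited by 3 mice a group and, for Dio1 and for Dio2 at 30 °C, by levels near 0 in data that hold no read counts.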

Other observations

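Further genes around the pathway, picked after their values were seen, were described by level and not by call. Tshr, the receptor for thyrotropin, measured 13.995, 5.43 and 5.68 FPKM in WT_8C and 2.94, 5.66 and 5.32 in AKO_8C, so 1 library, WT_8C replicate 1, stood far above the rest, and this is the library with the high epithelial markers. Dio3, the deiodinase that inactivates T4 and T3, stayed below 0.3 FPKM in every library and did not pass the filter. At 8 °C Pdk4 (log2 difference 1.33, limma adjusted p = 0.0945), Ppargc1b (1.01, 0.1005), Slc3a2 (0.60, 0.0681), Usp33 (0.47, 0.0855) and Rxrb (0.24, 0.179) were higher in every library labelled AKO than in any WT library without passing the test, as were 15.2% of all genes tested.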
